A study of Mus musculus with 23 samples.

Results

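The 10 genes described here encode the enzymes of serine synthesis (Phgdh, Psat1, Psph), the serine hydroxymethyltransferases and folate enzymes of the cytosol (Shmt1, Mthfd1) and of the mitochondrion (Shmt2, Mthfd2, Mthfd1l, Aldh1l2), and the proline synthesis enzyme Aldh18a1. They were found by symbol among the 35976 genes of the deposited count table, and all 10 were among the 16121 genes with enough counts to be tested. The set was chosen from an earlier analysis of the same libraries, in which Mthfd2 and Phgdh were lower in Maintenance than in Saline. Their differences between Maintenance and Saline are therefore given as a description, as are those between Abstinence and Maintenance, which rest on the same Maintenance libraries.

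The RNA came from microglia, the resident immune cells of the brain, isolated from the striatum. The mice were male C57BL/6J, and the labels give 1 age of 9 weeks for all. Mice of the Maintenance group (8 libraries) worked a lever for intravenous methamphetamine, a psychostimulant, at 0.05 mg/kg per infusion in 15 daily sessions of 2 hr, and their cells were taken right after the last session. Abstinence mice (7 libraries) had the same access and then stayed in their home cages for 21 days of enforced abstinence. Saline mice (8 libraries) self-administered saline and were sampled at the time point of the Maintenance group. No saline group kept through the 21 days was analysed here, so abstinence and the added time cannot be told apart in Abstinence against Saline. How the cells were isolated is not given in the sources used here, and the labels do not say that each replicate was a separate mouse, so p-values measure the spread between these samples.

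Cells make serine from an intermediate of glycolysis in a short chain that Phgdh begins, Psat1 continues and Psph completes. Serine hydroxymethyltransferases then split serine into glycine and a one-carbon unit bound to folate. In the mitochondrion Shmt2, Mthfd2 and Mthfd1l carry that unit to formate, which leaves for the cytosol, where Mthfd1 attaches it to folate again for the synthesis of purines, thymidylate and methionine. Aldh1l2 oxidises part of the mitochondrial one-carbon pool to carbon dioxide. Aldh18a1 turns glutamate into the precursor of proline. In brain, Phgdh is best known from astrocytes, which supply serine to neurons, while Mthfd2 is known for its induction in proliferating cells and activated immune cells. Several of these genes are textbook targets of the stress-induced transcription factor ATF4.

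The promoters of Mthfd2, Phgdh, Shmt2 and Aldh18a1 are shown because the results below turn on these genes. Each runs from 250 bases before to 50 bases after the transcript start on the gene's own strand, from RefSeq on build GRCm38.p6. Capitals mark exact matches, on either strand, to 6 motifs: the C/EBP-ATF element TGATGNAA through which ATF4 acts, the E-box CACGTG, the cAMP response element TGACGTCA, the GC box GGGCGG, the CCAAT box and the TATA box TATAAA. The windows lie on chr6:83317555-83317854 (minus strand) for Mthfd2, chr3:98339920-98340219 (minus strand) for Phgdh, chr10:127522395-127522694 (minus strand) for Shmt2 and chr19:40588414-40588713 (minus strand) for Aldh18a1.
Mthfd2: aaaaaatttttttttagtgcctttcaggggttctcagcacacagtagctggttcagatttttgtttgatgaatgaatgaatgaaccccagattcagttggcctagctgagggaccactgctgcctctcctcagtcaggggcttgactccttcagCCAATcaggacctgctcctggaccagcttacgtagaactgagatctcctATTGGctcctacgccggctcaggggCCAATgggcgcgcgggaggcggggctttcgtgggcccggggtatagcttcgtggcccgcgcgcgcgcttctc
Phgdh: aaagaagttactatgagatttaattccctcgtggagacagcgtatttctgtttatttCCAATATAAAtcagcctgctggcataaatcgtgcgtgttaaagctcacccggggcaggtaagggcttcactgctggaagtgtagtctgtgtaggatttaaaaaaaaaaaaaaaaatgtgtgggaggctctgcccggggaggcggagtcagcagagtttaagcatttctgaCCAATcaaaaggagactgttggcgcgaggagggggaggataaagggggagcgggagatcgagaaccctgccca
Shmt2: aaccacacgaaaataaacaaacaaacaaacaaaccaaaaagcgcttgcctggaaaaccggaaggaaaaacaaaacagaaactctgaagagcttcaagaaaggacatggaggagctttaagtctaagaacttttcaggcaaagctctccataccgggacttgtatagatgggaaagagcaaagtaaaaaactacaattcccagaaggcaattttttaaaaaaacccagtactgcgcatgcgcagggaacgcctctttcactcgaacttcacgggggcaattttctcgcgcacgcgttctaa
Aldh18a1: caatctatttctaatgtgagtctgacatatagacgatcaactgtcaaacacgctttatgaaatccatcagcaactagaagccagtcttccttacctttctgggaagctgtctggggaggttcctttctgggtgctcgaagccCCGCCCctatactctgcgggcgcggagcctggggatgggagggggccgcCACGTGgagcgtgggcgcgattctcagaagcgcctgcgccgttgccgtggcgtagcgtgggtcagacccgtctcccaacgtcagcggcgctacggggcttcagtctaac

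The Mthfd2 window held 3 CCAAT boxes, 96, 47 and 22 bases before the start, the middle one on the opposite strand. In the Phgdh window there were CCAAT boxes 193 and 23 bases before the start, and a TATAAA 189 bases before it that shares 1 base with the farther CCAAT. The Aldh18a1 window held an E-box 59 bases and a GC box 108 bases before the start. The Shmt2 window held none of the 6 motifs. Neither the C/EBP-ATF element nor the cAMP response element occurred in any window of the 9 genes with an entry, which says only that these letters are not in these windows. Of 32851 mouse promoters of the same length, 3.97% held the C/EBP-ATF element, 1.79% the cAMP response element, 7.15% the E-box, 13.6% the TATA box, 35.7% the GC box and 37.4% the CCAAT box. The Mthfd2 start lies inside the span that RefSeq gives for the gene, and Aldh1l2 had no entry.

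Libraries held 54970954 to 94562470 counts in Maintenance, 71224927 to 94827095 in Abstinence and 55378997 to 84640226 in Saline. All 10 microglial markers were detected in every library, with summed levels of 39806 to 61970 CPM (counts per 1e6 counts) in Maintenance, 52647 to 61275 CPM in Abstinence and 49675 to 63472 CPM in Saline, although the labels give the tissue as neuronal. Fewest genes were detected in Maintenance 6 (12459) and 7 (12740), and Maintenance 8 held 71359 CPM of choroid plexus and ependymal markers, against at most 357 CPM in any Abstinence and 284 CPM in any Saline library. Results whose call or direction changed without these 3 libraries are given with and without them. Oligodendrocyte markers, all 12 detected in every library, had summed levels of 1277 to 5419 CPM in Maintenance (median 3962), 1869 to 4810 CPM in Abstinence (median 3640) and 656 to 5485 CPM in Saline (median 1765). For the 12 astrocyte markers, of which 9 to 12 were detected, the medians were 576, 602 and 500 CPM in the same order of groups. For the 11 neutrophil markers the medians were 82.7 CPM in Maintenance, 52.1 CPM in Abstinence and 128 CPM in Saline, and the granule genes Elane and Mpo were at 0 in all Maintenance and Abstinence libraries. The 5 erythrocyte markers, of which 4 to 5 were detected in Maintenance and 5 in every other library, had summed levels of 60 to 503 CPM in Maintenance (median 109), 81.4 to 765 CPM in Abstinence (median 428) and 161 to 691 CPM in Saline (median 474).

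Mthfd2, Phgdh, Aldh18a1 and Shmt2 were lower in Maintenance than in Saline, by 2.27-fold for Mthfd2 and 1.43-fold for Phgdh, and the first 3 were higher in Abstinence than in Maintenance. Psat1, Psph, Shmt1, Mthfd1, Mthfd1l and Aldh1l2 were not called in any comparison by edgeR. In Maintenance against Saline, 4 of the 10 genes (Phgdh, Shmt2, Mthfd2 and Aldh18a1) were called lower at an adjusted p under 0.05 in edgeR's quasi-likelihood test, against a background of 0.372% of all genes tested (60 of 16121), or 0.707% in either direction. For 2 of them, Phgdh and Mthfd2, no Maintenance library reached the lowest Saline library, against 0.248% of all genes (40 genes). In Abstinence against Maintenance, 3 of the 10 (Phgdh, Mthfd2 and Aldh18a1) were called higher, against 0.397% of all genes (64 genes), or 0.949% in either direction, and Mthfd2 alone had groups that did not overlap, against 0.211% (34 genes). Since the genes were selected on the Maintenance libraries, nothing is read from these counts. In Abstinence against Saline, 0 of the 10 were called by edgeR, against 0.0186% of all genes (3 genes), and 2 of the 10 (Psat1 and Mthfd2) had an unadjusted p under 0.05, against 4.39% of all genes. DESeq2 also called 0 there, and limma voom called Mthfd2. The 3 comparisons share libraries in pairs and are not independent. The median log2 fold change of the 10 genes was -0.40 in Maintenance against Saline, 0.01 in Abstinence against Saline and 0.43 in Abstinence against Maintenance, with 0.01 over all genes in each. Erythrocyte markers went the way of the called enzymes: 5 of 5 had a negative log2 fold change in Maintenance against Saline (median -1.21) and 5 of 5 a positive one in Abstinence against Maintenance (median 1.19), with a median of 0.10 in Abstinence against Saline. Of these 5 markers 0 were called by edgeR, DESeq2 or limma voom in any comparison, and 4, 0 and 4 had an unadjusted p under 0.05 in Maintenance against Saline, Abstinence against Saline and Abstinence against Maintenance. Microglial markers shifted less. Of 10, 9 had a negative log2 fold change in Maintenance against Saline (median -0.12) and 7 a positive one in Abstinence against Maintenance (median 0.08). Their median was 0.01 in Abstinence against Saline. Of them 0 were called by edgeR, and DESeq2 and limma voom called Olfml3 in Abstinence against Maintenance (edgeR 0.39 ± 0.10). Unadjusted counts in the order above were 3, 0 and 4. The part of either marker list in the result was not tested. Fewer cells that express a gene and less RNA of it per cell cannot be told apart in these bulk libraries.

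**Figure D1:**
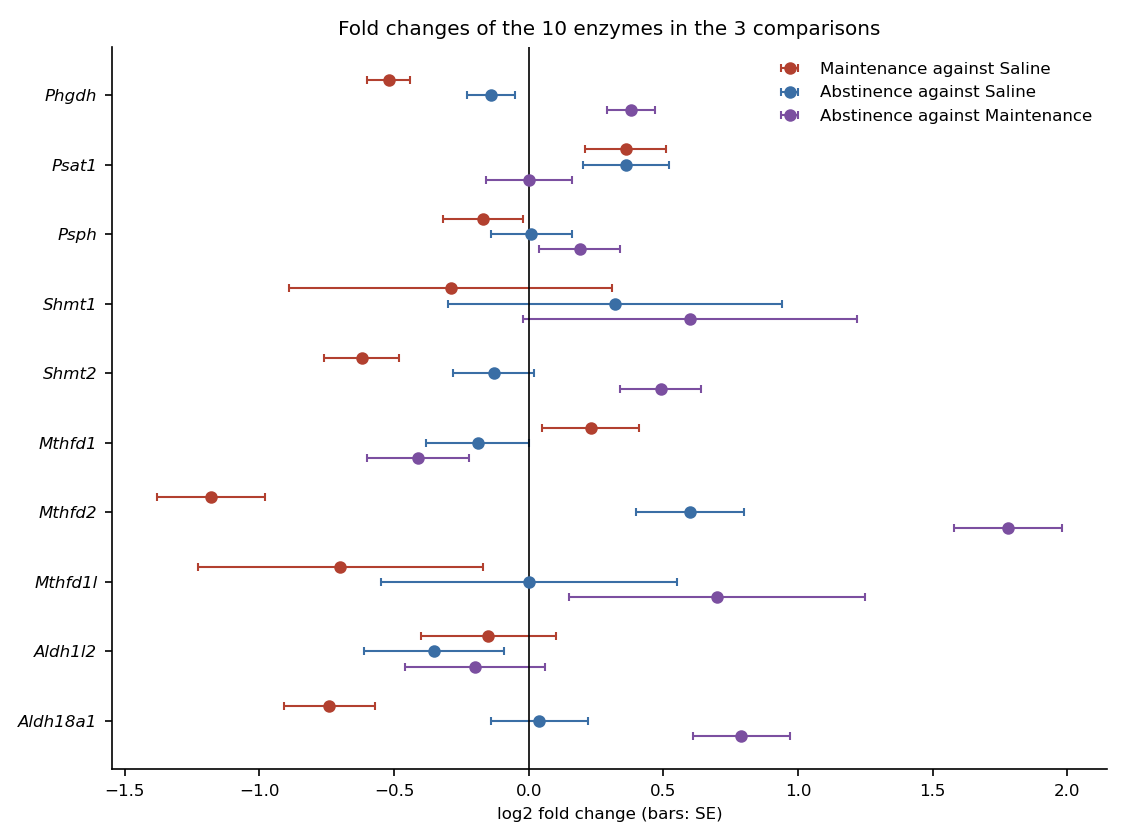
Log2 fold changes of the 10 enzymes (x axis; points, with bars for the SE of the edgeR fit) in Maintenance against Saline, Abstinence against Saline and Abstinence against Maintenance (colours), 1 row per gene. Mthfd2 stands at -1.18, 0.60 and 1.78 in these comparisons, and Psat1 at 0.36, 0.36 and 0.00.

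Levels differed widely between the 10 genes. Per kilobase of exon, Phgdh was the most abundant in Saline at 65.3 ± 5.33 CPM per kb (SD, n = 8) and lay above 95.4% of the 14619 tested genes with a known exon length. Psat1 followed at 11.9 ± 3.41 CPM per kb and Shmt2 at 10.5 ± 2.37, with Psat1 above Shmt2 in 4 of 8 Saline libraries. Mthfd2 (7.71 ± 2.34 CPM per kb) and Aldh18a1 (7.55 ± 1.24) were next, each above the other in 4 libraries. Mthfd1 (5.8 ± 1.2) and Psph (4.27 ± 0.98) came after them. Mthfd1l (1.69 ± 0.298), Aldh1l2 (0.978 ± 0.246) and Shmt1 (0.914 ± 0.492 CPM per kb) were the lowest, and the last 2 were each above the other in 4 of 8 libraries. The ranges of neighbours overlapped in Saline except between Phgdh and Psat1, Psph and Mthfd1l, and Mthfd1l and Aldh1l2. Mthfd2 took rank 7 of 10 in Maintenance (3.38 ± 0.748 CPM per kb, n = 8), rank 3 in Abstinence (11.7 ± 3.75, n = 7) and rank 4 in Saline.

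The serine synthesis enzymes did not move as a block. Phgdh (chromosome 3, 98313171 to 98339969, GRCm38.p6), which oxidises 3-phosphoglycerate and commits it to serine, measured 94.7 CPM in the lowest, 114 in the median and 129 in the highest Maintenance library. Its lowest, median and highest values were 110, 148 and 175 CPM in Abstinence and 144, 160 and 188 CPM in Saline. All 8 Maintenance libraries lay below all 8 Saline libraries, and 6 of 7 Abstinence libraries lay above every Maintenance library. Means were 113 ± 11.9 CPM in Maintenance, 148 ± 22.4 in Abstinence and 162 ± 13.3 in Saline (SD), with log2 fold changes of -0.52 ± 0.08 for Maintenance against Saline (1.43-fold lower) and 0.38 ± 0.09 for Abstinence against Maintenance (SE). The second difference was no longer called without Maintenance 6 or 7 or without Abstinence 2, 3, 4 or 7 (0.33 to 0.38), nor without Maintenance 6, 7 and 8 together (0.30 ± 0.09). Abstinence against Saline gave -0.14 ± 0.09 (edgeR adjusted p = 0.999).

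Psat1 (chromosome 19, 15905123 to 15925059), the aminotransferase of the second step, was not lower in Maintenance. It measured 39 CPM in the lowest, 63.6 in the median and 84.8 in the highest Maintenance library, 49.9, 65.6 and 76.9 CPM in Abstinence and 36.5, 46.8 and 73 CPM in Saline. The groups overlapped broadly, but 7 of 8 Maintenance and 7 of 7 Abstinence libraries exceeded the Saline median. Its log2 fold change was 0.36 ± 0.15 in Maintenance against Saline and 0.36 ± 0.16 in Abstinence against Saline (edgeR adjusted p = 0.999), and 0.00 ± 0.16 between Abstinence and Maintenance. With mean oligodendrocyte and neutrophil markers as covariates, the first 2 values were 0.15 ± 0.14 and 0.12 ± 0.15, and with the mean astrocyte marker they were 0.33 ± 0.12 and 0.22 ± 0.13. In Maintenance against Saline, limma voom (0.58 ± 0.14) and the 17 libraries of a second deposited table (0.67 ± 0.13) called it higher. The 17 lack Saline 5, 6 and 8 and Maintenance 6, 7 and 8. Psat1 was highest in Saline 5 and 8 (73 and 72 CPM) and lowest in Saline 6 (36.5 CPM) within Saline. Within Maintenance it was lowest in Maintenance 8 (39 CPM). Psph (chromosome 5, 129765558 to 129787443), the phosphatase that releases serine, measured 12, 15.8 and 23.3 CPM (lowest, median, highest) in Maintenance, 16, 18.4 and 22.2 in Abstinence and 13.9, 17.5 and 26.9 in Saline. Its differences were within the spread of the libraries, at -0.17 ± 0.15, 0.01 ± 0.15 (edgeR adjusted p = 0.999) and 0.19 ± 0.15 for Maintenance against Saline, Abstinence against Saline and Abstinence against Maintenance.

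**Figure D2:**
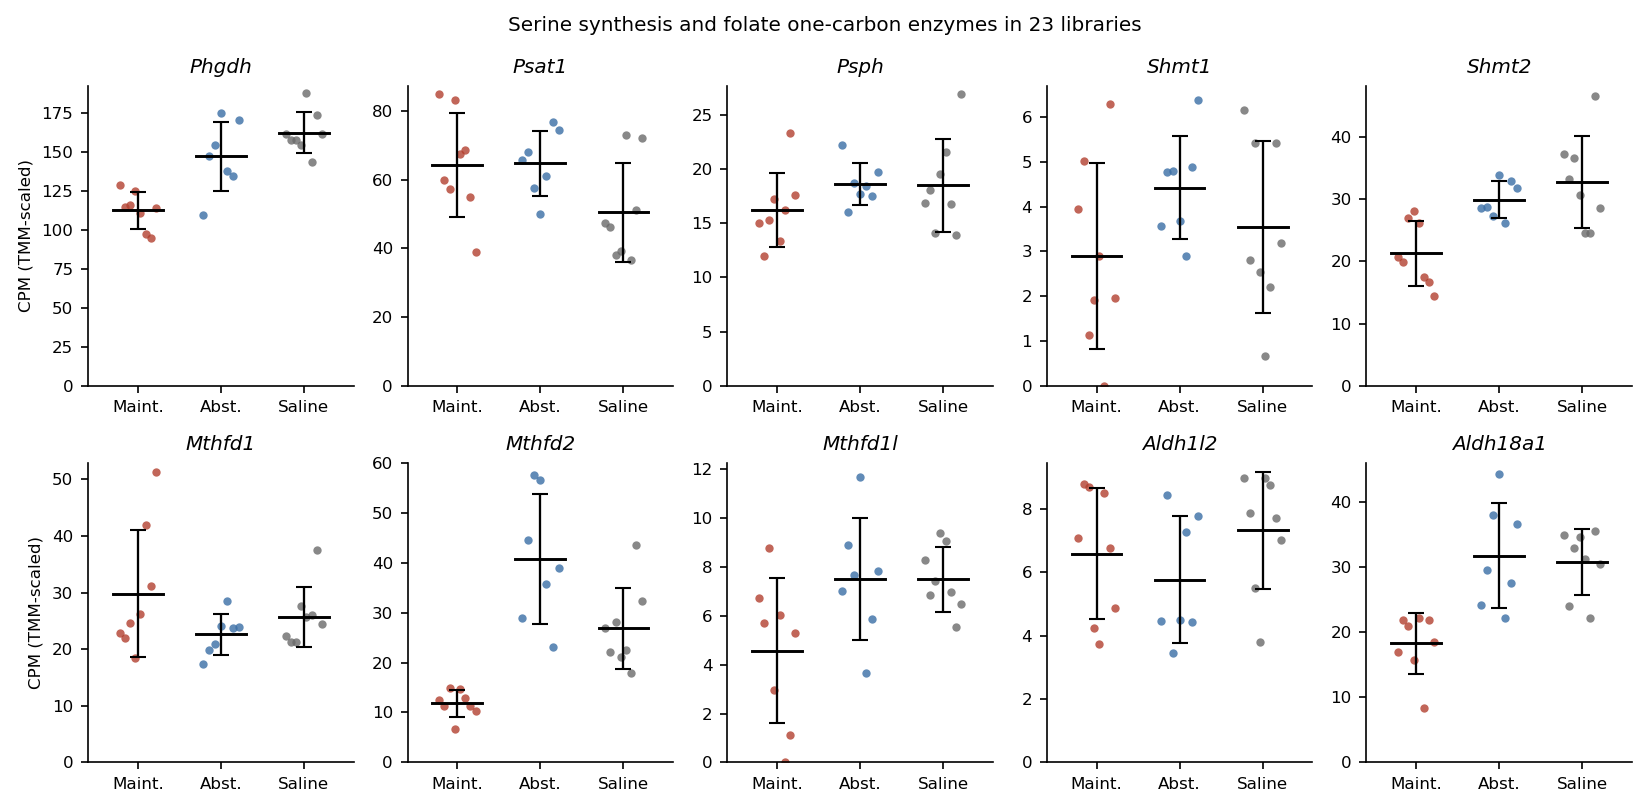
Levels of the 10 enzymes in each library (y axis, TMM-scaled CPM from 0; 1 panel per gene) for Maintenance, Abstinence and Saline. Points are libraries, and black lines are means ± SD over 8, 7 and 8 libraries. The Mthfd2 points lie at 6.68 to 14.9 CPM in Maintenance, below every Abstinence and Saline point.

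Among the mitochondrial folate enzymes, Mthfd2 (chromosome 6, 83305704 to 83326011), the dehydrogenase and cyclohydrolase that oxidises the one-carbon unit, differed most. It measured 6.68 CPM in the lowest, 11.8 in the median and 14.9 in the highest Maintenance library. In Abstinence these values were 23.1, 39 and 57.5 CPM, and in Saline 17.9, 24.7 and 43.6 CPM. Every Maintenance library lay below every library of the other groups, and 3 of 7 Abstinence libraries lay above the highest Saline library. Its mean of 11.8 ± 2.61 CPM in Maintenance stood beside 40.7 ± 13.1 in Abstinence and 26.9 ± 8.15 in Saline (SD). The log2 fold change was -1.18 ± 0.20 for Maintenance against Saline (2.27-fold lower) and 1.78 ± 0.20 for Abstinence against Maintenance (3.44-fold higher), called with each library left out in turn and under all 13 other alternatives. Abstinence against Saline gave 0.60 ± 0.20 (1.52-fold, 6 of 7 libraries above the Saline median), which was not called by edgeR (adjusted p = 0.678) or DESeq2 (adjusted p = 0.4) and was called by limma voom (0.69 ± 0.17, adjusted p = 0.0434). Over all alternatives this value ran from 0.36 to 0.74.

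Shmt2 (chromosome 10, 127517123 to 127522444), the mitochondrial enzyme that splits serine, measured 14.4, 20.3 and 28 CPM (lowest, median, highest) in Maintenance, 26.2, 28.7 and 33.8 CPM in Abstinence and 24.6, 31.9 and 46.5 CPM in Saline. The groups overlapped, with 8 of 8 Maintenance libraries below the Saline median and 5 of 8 below the lowest Saline library. Its log2 fold changes were -0.62 ± 0.14 in Maintenance against Saline, called lower, 0.49 ± 0.15 in Abstinence against Maintenance, not called by edgeR and called by DESeq2 (0.48), and -0.13 ± 0.15 in Abstinence against Saline (edgeR adjusted p = 0.999). The call in Maintenance against Saline lay near the threshold (edgeR adjusted p = 0.0359). It was lost without Saline 1, 2, 3, 4 or 7 or without Maintenance 1, 2, 6, 7 or 8. The values in these fits were -0.63 to -0.52 (edgeR adjusted p of 0.0568 to 0.0895). Without Maintenance 6, 7 and 8 together the value was -0.43 ± 0.14, not called. Reads of Ndufa4l2, which overlaps Shmt2 on the other strand, cannot be told apart without strand, and Ndufa4l2 was not called in any comparison. Its log2 fold change in Maintenance against Saline was 0.15.

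Mthfd1l (chromosome 10, 3972892 to 4167081), which releases formate, was low, at 0, 5.51 and 8.77 CPM (lowest, median, highest) in Maintenance, 3.65, 7.67 and 11.7 CPM in Abstinence and 5.53, 7.21 and 9.38 CPM in Saline. Maintenance 6 had 0 counts, which allows up to 0.0403 CPM by counting error alone, and Maintenance 7 had 1.12 CPM. Its log2 fold changes of -0.70 ± 0.53 in Maintenance against Saline, 0.00 ± 0.55 in Abstinence against Saline (edgeR adjusted p = 0.999) and 0.70 ± 0.55 in Abstinence against Maintenance were not called. Without Maintenance 6, 7 and 8 the first and last were -0.31 ± 0.25 and 0.31 ± 0.26. Aldh1l2 (chromosome 10, 83487447 to 83534146) measured 3.74, 6.93 and 8.8 CPM in Maintenance, 3.44, 4.49 and 8.45 CPM in Abstinence and 3.8, 7.8 and 8.99 CPM in Saline. The 3 ranges were nearly the same, and none of its differences (-0.15 ± 0.25, -0.35 ± 0.26 with edgeR adjusted p = 0.999, and -0.20 ± 0.26 in the order of comparisons above) was called.

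The cytosolic counterparts were not called in any comparison by edgeR. Mthfd1 (chromosome 12, 76254406 to 76319820), the enzyme with 3 activities that works on folate in the cytosol, measured 18.5, 25.5 and 51.3 CPM in Maintenance, 17.4, 23.8 and 28.5 CPM in Abstinence and 21.2, 25 and 37.5 CPM in Saline. The 3 highest Maintenance values were those of Maintenance 6 (41.9), 7 (31.2) and 8 (51.3 CPM). Its log2 fold change of 0.23 ± 0.18 in Maintenance against Saline was not called and was -0.17 ± 0.14 without these 3 libraries. Abstinence against Maintenance gave -0.41 ± 0.19, not called, and -0.02 ± 0.14 without them, and Abstinence against Saline -0.19 ± 0.19 (edgeR adjusted p = 0.999). Shmt1 (chromosome 11, 60788897 to 60811265), the cytosolic serine hydroxymethyltransferase, was low, at 0, 2.43 and 6.29 CPM in Maintenance, 2.9, 4.76 and 6.37 CPM in Abstinence and 0.67, 2.99 and 6.16 CPM in Saline. Maintenance 6 again had 0 counts. Errors on its log2 fold changes of -0.29 ± 0.60, 0.32 ± 0.62 (edgeR adjusted p = 0.999) and 0.60 ± 0.62, in the same order of comparisons, were as large as the differences or larger. Without Maintenance 6 the first and last were -0.09 ± 0.40 and 0.41 ± 0.42, and without Maintenance 6, 7 and 8 they were -0.25 ± 0.42 and 0.56 ± 0.43.

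Aldh18a1 (chromosome 19, 40550257 to 40588463), which makes the proline precursor from glutamate, measured 8.39, 19.6 and 22.2 CPM (lowest, median, highest) in Maintenance, 22.2, 29.5 and 44.2 CPM in Abstinence and 22.2, 32.1 and 35.5 CPM in Saline. Maintenance libraries were low, with 7 of 8 below the lowest Saline library, while Abstinence and Saline overlapped. Means were 18.3 ± 4.68, 31.7 ± 8.06 and 30.7 ± 5.06 CPM (SD). The log2 fold change was -0.74 ± 0.17 in Maintenance against Saline and 0.79 ± 0.18 in Abstinence against Maintenance, both called, and 0.04 ± 0.18 in Abstinence against Saline (edgeR adjusted p = 0.999). The first call was lost without Saline 1, 3, 4, 5 or 7 or Maintenance 1 or 4 (-0.74 to -0.70), without Maintenance 6, 7 and 8 together (-0.66 ± 0.16) and with the oligodendrocyte and neutrophil covariates (-0.78 ± 0.23). The second was lost without Maintenance 4 or Abstinence 3, 4 or 7 (0.69 to 0.75).

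Ratios within a library set the 2 compartments side by side, again as a description. Mthfd2 over its cytosolic relative Mthfd1, both per kilobase of exon, was 0.548 ± 0.181 in Maintenance (0.256 to 0.768), 2.34 ± 0.813 in Abstinence (1.24 to 3.51) and 1.34 ± 0.318 in Saline (0.873 to 1.7; SD). No Maintenance library reached the lowest library of either other group. The summed level of the 4 mitochondrial folate genes was 12.1 ± 2.3 CPM per kb in Maintenance, 23.8 ± 4.25 in Abstinence and 20.9 ± 4.27 in Saline, while Shmt1 and Mthfd1 summed to 7.47 ± 2.41, 6.24 ± 0.818 and 6.71 ± 1.33 CPM per kb. In the 5 Maintenance libraries other than 6, 7 and 8, a choice made after the data were seen, the cytosolic sum was 5.92 ± 0.763 CPM per kb, which is below the Saline mean, whereas the mean of all 8 lay above it. In these 5 libraries the mitochondrial sum was 13.5 ± 1.74 CPM per kb and Mthfd2 over Mthfd1 was 0.655 ± 0.117. Shmt2 made up 90% ± 7.6 of both hydroxymethyltransferases in Maintenance, 89.5% ± 2.23 in Abstinence and 92.4% ± 2.96 in Saline, a share that differed by less than the spread in Maintenance. Psat1 over Phgdh was 0.334 ± 0.0681 in Maintenance, 0.264 ± 0.0627 in Abstinence and 0.18 ± 0.0419 in Saline, with overlapping ranges. In the 5 Maintenance libraries other than 6, 7 and 8 it was 0.344 ± 0.0458 (0.288 to 0.388), above the highest Saline library (0.259). The 3 serine synthesis genes summed to 64.3 ± 6.89, 78.9 ± 8.4 and 81.5 ± 8.66 CPM per kb in Maintenance, Abstinence and Saline.

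**Figure D3:**
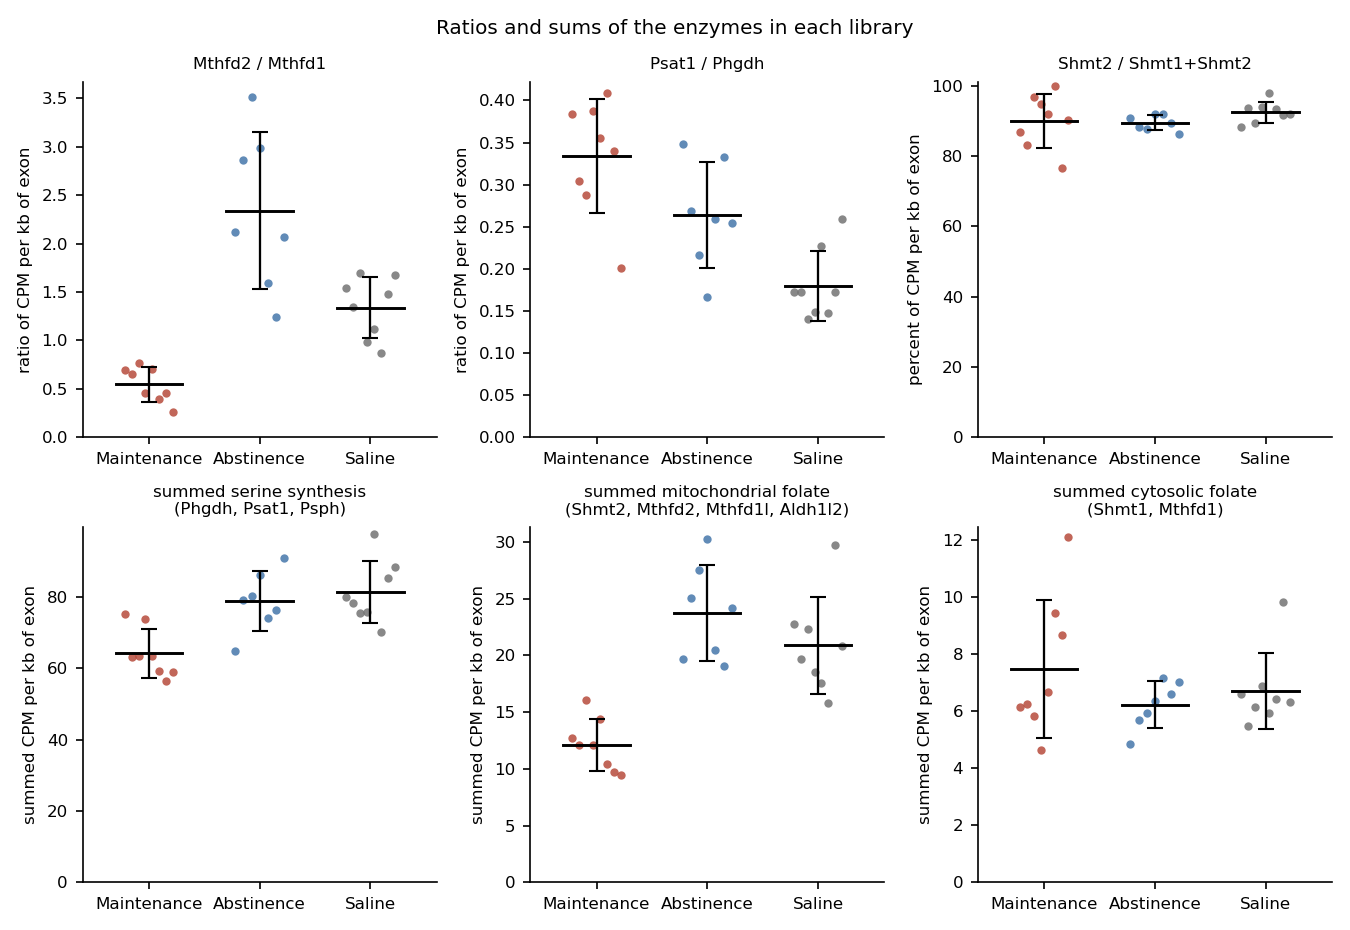
Ratios and sums of the enzymes in each library (y axes from 0, in CPM per kb of exon, their ratio or percent) for Maintenance, Abstinence and Saline. Points are libraries, and black lines are means ± SD over 8, 7 and 8 libraries. Mthfd2 over Mthfd1 lies at 0.256 to 0.768 in Maintenance, 1.24 to 3.51 in Abstinence and 0.873 to 1.7 in Saline, while the cytosolic sums overlap.

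How the genes varied between libraries of 1 group was described with each group's mean taken off. Across the 23 libraries the 10 genes were only loosely alike. Mthfd2 and Aldh18a1 had a Pearson r of 0.43 (0.68 without Maintenance 6), Phgdh and Aldh18a1 0.51 (0.44) and Phgdh and Mthfd2 0.34 (0.39). The r of 0.75 between Shmt1 and Mthfd1l rested on Maintenance 6, where both had 0 counts, and was -0.31 without it. Among about 9458 other genes whose mean log2 CPM reached 2, those most like Mthfd2 were Iars (0.69), which encodes the isoleucyl-tRNA synthetase, Llph (0.66) and Knop1 (0.64). Those most like Phgdh were Cdh23 (0.83), Tars (0.74), the threonyl-tRNA synthetase, and Chac2 (0.73). For Shmt2 they were Bcl2a1b, Rpl14-ps1 and Hnrnpf (0.73 each), for Psph Fbxw17 (0.72), Atp6v1g2 and Tfdp2 (0.69 each), for Mthfd1 Cdv3 (0.83), Oaz2 and Chkb (0.79 each) and for Aldh1l2 Mgll (0.67), Rbmx2 and Trim13 (0.65 each). The genes most like Aldh18a1 (Pacs1 0.84, Gpbp1l1 and Rrp1 0.82), Shmt1 (Asb1 0.93, Ddx10 and Kctd7 0.92) and Mthfd1l (Patz1 and Rwdd2a 0.97, Gpsm1 0.96) owed part of that to Maintenance 6: without it the values were 0.62 to 0.69, 0.59 to 0.70 and 0.74 to 0.83. All points share library depth and makeup, so these values carry no p.

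Psat1 tracked the myelin-related transcripts of each isolate. The genes most like it were Sept4 (0.87), Qdpr (0.86) and Mal (0.86), the last a myelin protein gene that is itself one of the 12 oligodendrocyte markers. Against the mean of these markers, with group means taken off, Psat1 had a Pearson r of 0.79 over 23 libraries (two-sided permutation p = 4e-05, adjusted p = 0.0008) and a Spearman rho of 0.70 (permutation p = 0.00073, adjusted p = 0.0146). Without the 2 libraries farthest from the marker median, Saline 6 and 8, r was 0.72. Within groups r was 0.69 in Maintenance, 0.93 in Abstinence and 0.82 in Saline. Against the astrocyte markers r was 0.69 (permutation p = 0.00082, adjusted p = 0.0082) and rho 0.62 (permutation p = 0.00474, adjusted p = 0.0474), and r was 0.59 without Maintenance 8 and Saline 6. Of 20 such relations, 10 genes with 2 marker lists, these were the ones with an adjusted p under 0.05. The libraries share depth and makeup here too, a limit on these p-values. Within Saline both marker means were lowest in Saline 6 and highest in Saline 8, and the relation of Psat1 to 1 list apart from the other was not tested. For Mthfd2 and oligodendrocyte markers r was -0.03 (permutation p = 0.904), but its values within Maintenance, Abstinence and Saline were -0.36, -0.77 and 0.61. For Phgdh r was 0.17 (permutation p = 0.394), with 0.27, -0.35 and 0.58 in the same order of groups. Against the astrocyte markers the values within groups were -0.19, -0.89 and 0.45 for Mthfd2 and 0.40, -0.82 and 0.64 for Phgdh, so the pooled values join groups of opposite sign. With the astrocyte marker mean as covariate, Mthfd2 measured -1.18 ± 0.20 and Phgdh -0.52 ± 0.09 on the log2 scale in Maintenance against Saline. With the oligodendrocyte and neutrophil means they measured -1.37 ± 0.24 and -0.59 ± 0.11. Both were called in these fits, which is a description, since the set was chosen on these 2 genes in this comparison. Each fit took 1 slope per marker mean over all groups, and the part of cell makeup was not tested.

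**Figure D4:**
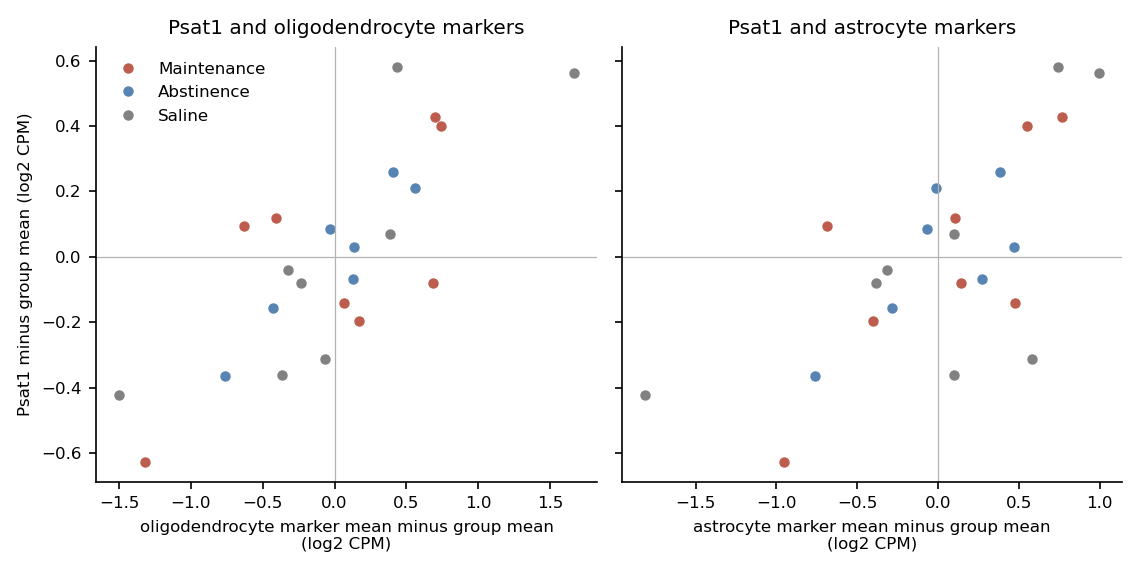
Psat1 (y axis, log2 CPM minus the group mean) against the mean of 12 oligodendrocyte markers (left) and 12 astrocyte markers (right; x axes, log2 CPM minus the group mean). Each point is 1 of 23 libraries, coloured by group. Psat1 is higher where either marker mean is higher, with r of 0.79 and 0.69.

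Of 132 tested genes in 10 lists of neighbouring pathways, edgeR called 1 higher and 0 lower in Maintenance against Saline, which is 0.758% against 0.707% of all genes. There 25 had an unadjusted p under 0.05 (18.9%, against 11.8% of all genes), and DESeq2 and limma voom called 6 each. In Abstinence against Saline it called 0, with 5 unadjusted (3.79%, against 4.39% of all genes), 1 by DESeq2 and 2 by voom. In Abstinence against Maintenance it called 0 higher and 2 lower (1.52%, against 0.949% of all genes), with 21 unadjusted (15.9%, against 11% of all genes), 4 by DESeq2 and 5 by voom. The gene called higher in Maintenance was Glul, the glutamine synthetase, which draws on glutamate as Aldh18a1 does. It measured 869 ± 109 CPM in Maintenance, 610 ± 53.9 in Abstinence and 667 ± 61 in Saline (SD), rose in Maintenance against Saline (0.39 ± 0.07, edgeR adjusted p = 0.00873) and fell in Abstinence against Maintenance (-0.52 ± 0.08, adjusted p = 0.000464). Umps, the last enzyme of uridine monophosphate synthesis, fell in Abstinence against Maintenance, with 73.8 ± 3.78 CPM in Abstinence and 93.2 ± 13.9 CPM in Maintenance (-0.34 ± 0.08, adjusted p = 0.0382).

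In the ATF4 pathway list, 0 of 20 tested genes were called in any comparison by edgeR. Its median log2 fold change was -0.14 in Maintenance against Saline, -0.04 in Abstinence against Saline and -0.02 in Abstinence against Maintenance. In the same order, 7, 2 and 5 genes had an unadjusted p under 0.05, or 35%, 10% and 25% of the list. Over all genes these shares were 11.8%, 4.39% and 11%. In Maintenance against Saline, DESeq2 called Cebpg and Ppp1r15a, and voom these and Atf3. Their edgeR values there were positive (0.25, 0.44 and 0.33). Eif4ebp1 (-0.35 ± 0.11, edgeR adjusted p = 0.141) and Slc3a2 (-0.17 ± 0.06, edgeR adjusted p = 0.207) were negative there and not called by edgeR, DESeq2 or voom. Of the list, 8 values were positive in Maintenance against Saline and 12 negative. The part of ATF4 in the enzyme levels was not tested. In Abstinence against Maintenance, DESeq2 called Ppp1r15a (edgeR -0.38), and voom this gene and Ddit3 (edgeR -0.37). Atf4 itself measured 75.5 ± 6.33 CPM in Maintenance, 83.3 ± 10.5 in Abstinence and 85.3 ± 9.62 in Saline (-0.17 ± 0.08 for Maintenance against Saline, edgeR adjusted p = 0.44). Asns, the asparagine synthetase and an ATF4 target, had 1.52 ± 1.55 CPM in Maintenance, 7.01 ± 3.11 in Abstinence and 5.94 ± 3.31 in Saline, and its log2 fold changes of -1.95 ± 0.84 in Maintenance against Saline (adjusted p = 0.342) and 2.19 ± 0.87 in Abstinence against Maintenance (adjusted p = 0.296) missed the threshold. Pycr1, which completes proline synthesis, had 1.95 ± 2.2, 3.17 ± 1.82 and 4.07 ± 1.13 CPM in Maintenance, Abstinence and Saline and was not called (-1.04 ± 0.91 in Maintenance against Saline, adjusted p = 0.747).

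Among 8 other regulators linked to serine synthesis genes, 0 were called by edgeR in any comparison. In Maintenance against Saline, Abstinence against Saline and Abstinence against Maintenance, 2, 2 and 3 had an unadjusted p under 0.05. These were 25%, 25% and 37.5% of the list, against 11.8%, 4.39% and 11% of all genes. Myc measured 203 ± 33.3 CPM in Maintenance, 151 ± 30.2 in Abstinence and 220 ± 34.5 in Saline (-0.54 ± 0.12 in Abstinence against Saline, edgeR adjusted p = 0.189), and DESeq2 and voom called it lower in Abstinence than in either other group. DESeq2 also called Max in Maintenance against Saline, where its edgeR value was higher in Maintenance (0.52 ± 0.16). The 16 tested genes of the remaining folate cycle had medians of -0.06, -0.00 and 0.01 in the order of comparisons above. Of these genes 0 were called by edgeR, and 3, 0 and 3 had an unadjusted p under 0.05 (18.8%, 0% and 18.8% of the list). DESeq2 called 0 of the 16, and voom Slc46a1 in Maintenance against Saline (edgeR -0.28 ± 0.10). Among them, Slc25a32, the mitochondrial folate carrier, had 23.8 ± 6.71, 24.3 ± 3.83 and 22.4 ± 2.87 CPM in Maintenance, Abstinence and Saline. Tyms, the thymidylate synthase, had 13.6 ± 4.52, 12.9 ± 2.68 and 11.3 ± 1.03 CPM in the same order of groups. Mthfd2l, the paralog of Mthfd2, was near 1 CPM in all groups (0.913 ± 1.01, 1.01 ± 0.721 and 0.993 ± 0.615 CPM). The astrocyte enzyme Aldh1l1 had 4.9 ± 7.4, 4.06 ± 1.47 and 3.39 ± 2.67 CPM. None of these 4 genes was called. The 15 proliferation genes had 0 called by edgeR, DESeq2 or voom and 0 with an unadjusted p under 0.05 in any comparison. The 8 genes of lower glycolysis had 0 called by these tools, with 0, 0 and 2 unadjusted (0%, 0% and 25% of the list).

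**Figure D5:**
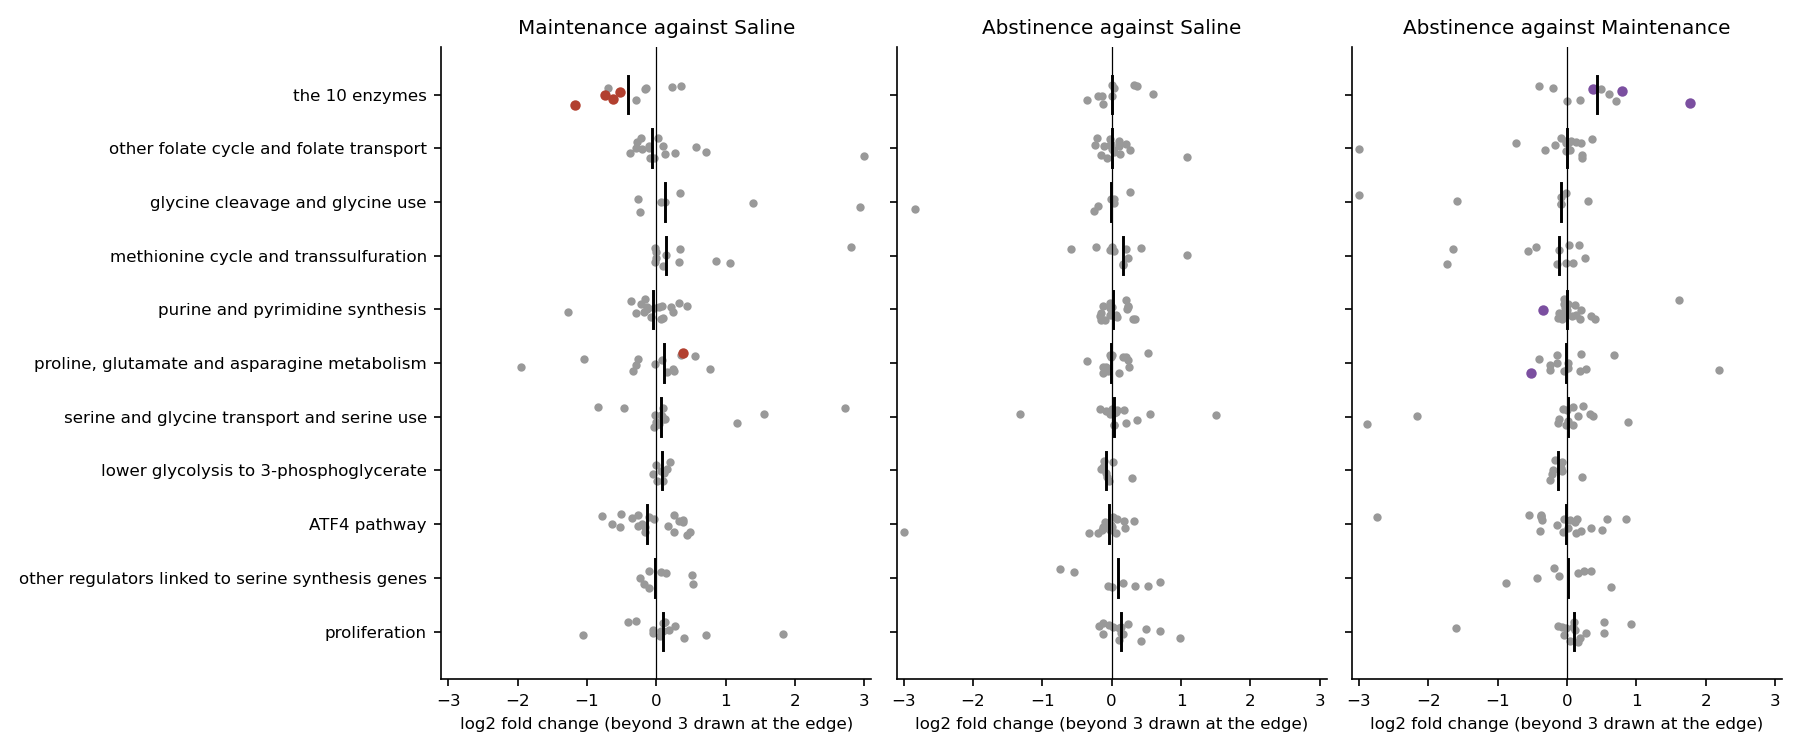
Log2 fold changes (x axis) of the 10 enzymes and of the tested genes of 10 neighbouring pathway lists (rows) in the 3 comparisons (panels). Points are genes, filled in colour where called at an adjusted p under 0.05, and black bars are medians. The coloured points outside the top row are Glul in Maintenance against Saline and Glul and Umps in Abstinence against Maintenance.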

How the data were processed

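Per the file headers, the deposited table holds counts of reads per gene symbol in 23 libraries, and a second deposited table, called normalized, held the same counts for 17 of them (0 of 611592 values differed) and served to choose 1 alternative. Per the labels' protocols, a low-input RNA library kit was used. The submitters' processing notes name STAR 2.7.10a, Trim Galore 0.6.7, DESeq2 1.38.3, StringTie 2.1.5 and cutadapt 1.18 with mm10 (GRCm38); order, settings and strand are not given in the sources used here.

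Genes were kept by edgeR's filterByExpr (minimum count 10, minimum total 15). All 23 libraries entered 1 quasi-likelihood fit (edgeR 4.0.16, TMM factors, robust) with group as the only factor and 3 contrasts, called at a Benjamini-Hochberg adjusted p under 0.05 over 16121 genes. The SE is the log2 fold change divided by the square root of F. CPM are TMM-scaled, and log2 CPM used a prior count of 2. Exon lengths came from GENCODE vM21 and positions and promoters from RefSeq GRCm38.p6. Psph, Shmt1, Shmt2 and Aldh1l2 overlap a tested gene on the other strand, none of which was called, and Phgdh has a pseudogene, Phgdh-ps1, that could take reads. Correlations with marker means used 100000 permutations, adjusted over 20 relations. The test was checked on simulated data.

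Alternatives were RLE and upper-quartile factors, other filters, DESeq2 1.42.0, limma voom (limma 3.58.1), the replicate block, only the compared groups, robust = FALSE, marker means as covariates, the 17 libraries, Maintenance 6, 7 and 8 left out, and each library left out in turn. The 17 libraries also lack Maintenance 6, 7 and 8, as well as Saline 5, 6 and 8. For ratios and sums, Maintenance 6, 7 and 8 were left out by a choice made after the data were seen. The genes named were all 10 enzymes, list members that passed (at most 4 per contrast), 9 genes whatever their p (1 of them is not reported here), and for each enzyme the 3 genes most like it at a mean log2 CPM of at least 2. Eif4ebp1 and Slc3a2 were named after the data were seen. The members, gene lists and motifs were chosen with earlier results of these data known. Counting intervals and limits cover counting error only.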

Additional observations from a re-analysis of the deposited data

Results flagged for a closer look

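In 2 of 30 sets of CPM values (10 genes in 3 groups), 1 library stood far from the others of its group, where chance gives about 1 in 20. Aldh18a1 measured 8.39 CPM in Maintenance 6, against 15.7 to 22.2 CPM in the other 7 Maintenance libraries. Mthfd1 measured 37.5 CPM in Saline 7, against 21.2 to 27.6 CPM in the other 7 Saline libraries.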

How the results depend on the processing

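Of 1080 values of the 10 genes under 36 alternatives, 1032 counted as the same, 39 lost a call, 4 gained one, 5 moved and 0 reversed a call. Called values that counted as the same kept their call and direction. Uncalled ones stayed uncalled and shifted by less than the SD within groups, whatever their sign. Some changed sign, such as Psph in Abstinence against Saline (0.01, with a range of -0.05 to 0.16). Genes called in Maintenance against Saline numbered 114, and 351 with DESeq2, 413 with limma voom, 69 with the replicate block, 41 with the oligodendrocyte and neutrophil covariates, 57 with only the compared groups and 176 with the 17 libraries, and 42 (without Saline 3) to 197 (without Saline 8) with 1 library left out. Of the 10 enzymes 4 were called there, 5 with limma voom and 5 with the 17 libraries. With only the compared groups 2 were called, without Maintenance 6, 7 and 8 also 2, and with 1 library left out 2 to 4. In Abstinence against Saline 3 genes were called, and 6 with the 1 CPM filter, 36 with DESeq2, 208 with voom, 0 with the oligodendrocyte and neutrophil covariates, 1 with the astrocyte covariate, 5 with only the compared groups, 15 without Maintenance 6, 7 and 8 and 56 with the 17 libraries, and 1 (without Saline 1) to 15 (without Saline 8) with 1 library left out. Of the enzymes 0 were called, also with each library left out, and 1 with voom. In Abstinence against Maintenance 153 genes were called, and 242 with the 1 CPM filter, 471 with DESeq2, 340 with voom, 64 with only the compared groups and 238 with the 17 libraries, and 89 (without Abstinence 3) to 265 (without Maintenance 8) with 1 library left out. Of the enzymes 3 were called, 1 with only the compared groups and 1 to 3 with 1 library left out. The cause was not tested in any of these. With the replicate block, Shmt2 in Maintenance against Saline (-0.62 ± 0.15) and Phgdh in Abstinence against Maintenance (0.38 ± 0.09) were no longer called. With only the compared groups, Shmt2 (-0.62 ± 0.16) and Aldh18a1 (-0.74 ± 0.17) in Maintenance against Saline and Phgdh (0.37 ± 0.10) and Aldh18a1 (0.78 ± 0.20) in Abstinence against Maintenance lost their calls. Without a filter Shmt2 in Maintenance against Saline did, and with the 17 libraries Phgdh in Abstinence against Maintenance (0.30 ± 0.09). Same-numbered libraries of different groups had correlations of -0.12 to 0.09, none of them over 0.1. For 3 of the 7 numbers shared by Saline and Abstinence, the Saline library was most like the Abstinence library of its own number. In the other pairs of groups this held for 0. The numbers were not taken to pair samples in the main fit, and the replicate block was run as an alternative. The wide errors of Shmt1, Mthfd1l and Aldh1l2 (SE of 0.60, 0.53 and 0.25 in Maintenance against Saline) limit what their differences can show. Without Maintenance 6 the SE of Shmt1 and Mthfd1l there were 0.40 and 0.30.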
